A study of Mus musculus with 6 samples.

Results

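The skeletal muscle genes examined here were 4 regulators of muscle cell identity (*Pax7*, *Myf5*, *Myod1* and *Myog*), the 2 striated muscle actins *Acta1* and *Actc1*, the troponin T genes *Tnnt3* and *Tnnt2*, the myosin light chain gene *Myl1* and the desmin gene *Des*. They were chosen by name, and every probe set that the array's annotation assigns to one of them alone was taken. This gave 15 probe sets for 10 of 18193 measured genes. A probe set is a group of short probes that reads the 3′ part of a transcript. The samples were neonatal tail tip fibroblasts grown from mice backcrossed to C57BL6: 3 arrays carried RNA of *Hotair* knockout cells and 3 that of wild-type cells. *Hotair* is a noncoding RNA of the Hoxc gene cluster. No drug or other allele is named in the labels. Nothing there ties a sample to an animal or a dish, so the p-values speak of the spread among these arrays, which may be technical.

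In embryonic muscle, *Pax7* and *Myf5* mark progenitors and early myoblasts, and the basic helix-loop-helix factors encoded by *Myf5*, *Myod1* and *Myog* bind E-boxes in front of muscle genes and drive differentiation. Differentiated fibres then assemble sarcomeres, in which thin filaments of actin with tropomyosin and troponin slide past thick filaments of myosin, while desmin filaments link neighbouring sarcomeres. Actin, troponin T and desmin genes are also transcribed in smooth muscle, in the heart or in activated mesenchymal cells, partly through serum response factor and TEAD factors, so these transcripts alone do not mark skeletal muscle.

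The median log2 value per array lay between 5.56 and 5.68. Markers of the labelled cell type were present: none of 12 measured fibroblast genes, among them the collagen gene *Col1a1*, lay below the median level of all probe sets by its mean over the 6 arrays. These markers were not even between genotypes: 10 of 12 lay higher in knockout with a median difference of 1.12. Over all genes the median was 0.0067, and 8888 of 18193 lay lower. At an unadjusted limma p under 0.05 there were 3 of the 12, all higher, against 6.98% of all genes (766 of 18193 higher). After limma's adjustment there were 0. *Lum* read 10.46, 8.77 and 8.56 in knockout and 8.79, 5.03 and 6.06 in wild type. When replicate 1 of both genotypes was left out, *Lum* and *Fap* passed (3.12 and 4.10, both higher in knockout), and the median of the 12 was 1.34. Of all genes 5.78% passed in that fit (3.07% higher). *Lum* and *Fap* were named after their values were seen. Replicate 1 of both genotypes stood apart on the first principal component (−82.7 in knockout and −114.7 in wild type, against 39.3 to 74.7 on the 4 other arrays). On the second component replicates 2 and 3 lay at 59.1 and 71.0 in knockout and at −75.3 and −66.0 in wild type. Replicate 1 lay between these, at −0.71 in knockout and 11.9 in wild type. On the replicate 1 arrays the median of 11 proliferation genes, relative to each gene's mean, was −1.48 in knockout and −2.00 in wild type, against 0.62 to 1.18 on the others. Knockout replicate 1 also stood apart in its control probe sets. Its 3′ ones exceeded the 5′ ones by 0.63 (*Actb*) and 0.75 (*Gapdh*), where no other array passed 0.22 and −0.026. Whether this 3′ bias reflects RNA degradation was not tested. The main results on *Acta1*, *Actc1* and *Tnnt2*, and the counts of muscle probe sets and genes that passed, are therefore given with and without replicate 1. *Hotair* was not analysed here, and no check of the genotypes against it was made.

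The regulators of muscle identity were dim on all 6 arrays and did not differ detectably between genotypes. *Myod1*, the factor that can convert fibroblasts to muscle, read 3.92, 3.90 and 4.06 in knockout and 4.04, 3.95 and 3.97 in wild type on its brighter probe set. The groups overlapped, and the 6 values spanned only 0.16 log2 units. *Myog*, which starts terminal differentiation, read 4.21, 4.24 and 4.40 in knockout and 4.38, 4.22 and 4.49 in wild type, again with overlapping groups. *Myf5*, the earliest of these factors in the embryo, read 3.31, 3.18 and 3.33 in knockout and 3.40, 3.30 and 3.53 in wild type. *Pax7*, the satellite cell factor, read 3.82, 4.10 and 4.19 in knockout and 4.23, 4.14 and 4.17 in wild type on its brighter probe set. Knockout replicate 1 was the lowest of these. The differences, knockout minus wild type, were −0.03 ± 0.12 for *Myod1*, −0.08 ± 0.13 for *Myog*, −0.14 ± 0.13 for *Myf5* and −0.14 ± 0.14 for *Pax7* (log2, ± SE from limma, n = 3 each). The second probe sets of *Pax7* and *Myod1* differed by −0.11 and 0.15. By mean level these 6 probe sets lay at percentiles 1.2 to 27.0 of all probe sets, a rough guide only, since probe sets differ in affinity. RMA, the authors' normalization, compresses differences of such dim probe sets, so a difference could be larger than these values.

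**Figure D1:**
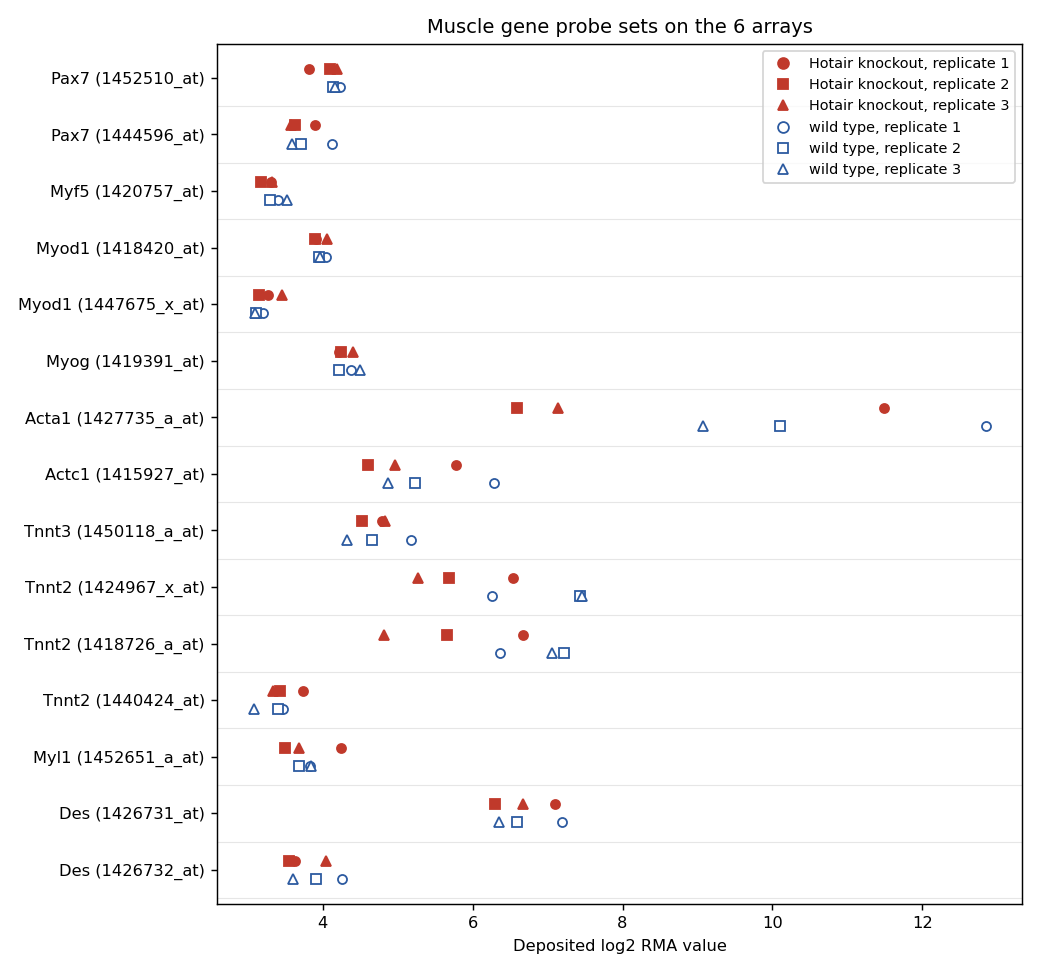
Deposited log2 value (horizontal axis) of the 15 probe sets of 10 muscle genes on the 6 arrays. Filled red symbols are knockout and open blue symbols wild-type arrays, and shapes mark the replicate number. *Acta1* spans 6.59 to 12.85, while the regulators at the top cluster between 3.10 and 4.49.

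*Acta1*, which encodes the main actin of adult skeletal muscle thin filaments, varied most among these genes. It read 11.48, 6.59 and 7.13 in knockout and 12.85, 10.11 and 9.07 in wild type. Replicate 1 was the highest array of each genotype, and knockout replicate 1 lay above wild-type replicates 2 and 3, so the groups overlapped. Only 54 of 45037 probe sets had a wider range over the 6 arrays than its 6.26 log2 units. The mean was 8.40 ± 2.68 in knockout and 10.68 ± 1.95 in wild type (SD, n = 3 each), a difference of −2.27 ± 1.59 (SE), or 4.84-fold lower in knockout, with a 95% interval from −6.20 to 1.65. It did not pass the test (limma adjusted p = 0.998). In a two-sided exact permutation test p was 0.3, and 3 against 3 arrays cannot go below 0.1.

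By replicate number *Acta1* was lower in knockout each time, with differences of −1.36, −3.52 and −1.94 in replicates 1, 2 and 3. Whether the shared numbers pair the arrays is not known. Of the 15 probe sets 3 were lower in knockout in all 3 same-numbered pairs, against 13.8% of all probe sets. With the replicate number as a block the SE of *Acta1* was 0.45 and the unadjusted p 0.00574, but the limma adjusted p was 0.536. Without replicate 1 of both genotypes, a choice made after seeing the data, the difference was −2.73 ± 0.41 (SE), 6.63-fold lower in knockout, and it passed narrowly (limma adjusted p = 0.048). Leaving out only knockout replicate 1 moved it to −3.81, and leaving out only wild-type replicate 1 to −1.19, and neither passed (limma adjusted p = 0.287 and 0.883).

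*Actc1*, the actin of the heart and of fetal skeletal muscle, varied less. It read 5.78, 4.61 and 4.97 in knockout and 6.29, 5.24 and 4.87 in wild type. Replicate 1 was again the highest array in both genotypes, and the groups overlapped. The difference was −0.35 ± 0.47 (SE; 95% interval −1.50 to 0.81; limma adjusted p = 1), and without replicate 1 it was −0.27 ± 0.22. Both replicate 1 arrays lay above the 4 others for 5 of the 15 probe sets, among them *Acta1* (by 3.94 on average), *Actc1* (1.11) and *Des* (0.66), against 19.1% of all probe sets.

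The sequences in front of the start sites are shown for the genes that varied most and for *Actc1*, because striated actin and cardiac troponin T promoters are textbook cases of control by serum response factor, TEAD factors and E-box factors. The 250 bases before the annotated start were taken from a RefSeq table on build GRCm38.p6, matched by symbol for 8 of the 10 genes. Capitals mark the CArG box of serum response factor, the M-CAT element of TEAD factors (CATTCC, both strands) and E-boxes (CANNTG). No marked matches overlap.
Acta1, chr8:123894776-123895025, minus strand: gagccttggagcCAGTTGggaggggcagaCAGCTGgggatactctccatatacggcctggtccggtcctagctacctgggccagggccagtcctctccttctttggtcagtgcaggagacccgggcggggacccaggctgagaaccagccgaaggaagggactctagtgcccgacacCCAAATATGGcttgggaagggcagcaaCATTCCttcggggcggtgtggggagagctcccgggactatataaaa
Actc1, chr2:114052876-114053125, minus strand: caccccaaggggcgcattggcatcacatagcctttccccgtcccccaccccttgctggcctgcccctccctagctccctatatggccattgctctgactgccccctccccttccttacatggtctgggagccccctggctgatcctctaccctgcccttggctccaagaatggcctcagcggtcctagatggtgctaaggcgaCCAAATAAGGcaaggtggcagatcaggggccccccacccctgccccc
Tnnt2, chr1:135836084-135836333, plus strand: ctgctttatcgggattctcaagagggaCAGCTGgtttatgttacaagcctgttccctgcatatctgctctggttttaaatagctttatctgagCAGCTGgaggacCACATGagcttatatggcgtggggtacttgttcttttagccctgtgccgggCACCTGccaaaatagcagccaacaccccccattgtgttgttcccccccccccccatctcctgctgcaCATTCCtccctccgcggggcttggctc

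The *Acta1* window held a CArG box 73 bases before the start, an M-CAT element at 46 and E-boxes at 238 and 221. The *Actc1* window held a CArG box at 47 and neither of the other motifs. The *Tnnt2* window, that of the upstream one of its listed starts, held an M-CAT element at 27 and 4 E-boxes, at 223, 157, 145 and 94. The window of its other listed start held no CArG box, no M-CAT element and 1 E-box, at 156. Windows that are not printed held some of these motifs too. That of *Myl1*, a dim gene with a difference of 0.02 ± 0.22 (SE), held an M-CAT element at 80 and an E-box at 224. Those of *Des* and *Myog* held E-boxes alone, at 220 and 36 and at 138 and 12. No match was found for *Pax7* and *Myf5*. Among 32851 windows of the same length, 1.47% held a CArG box, 12.6% an M-CAT element, 66.2% an E-box and 0.122% all 3. These matches describe the letters and were not measured as sites. The gene of serum response factor was named after its values were seen: the brighter probe set of *Srf* read 9.77, 8.99 and 8.69 in knockout and 10.02, 9.65 and 8.97 in wild type, a difference of −0.40 ± 0.38 (SE), while its other probe set differed by 0.12 ± 0.23.

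Of the troponin T genes, *Tnnt2*, which encodes the cardiac form that anchors troponin to tropomyosin and is also made in embryonic skeletal muscle, was lower in knockout in replicates 2 and 3 but not in replicate 1. Its brightest probe set read 6.54, 5.68 and 5.27 in knockout and 6.26, 7.44 and 7.46 in wild type. Replicate 1 of wild type was the lowest and replicate 1 of knockout the highest of its genotype, so that the groups overlapped. The difference was −1.22 ± 0.47 (SE; 95% interval −2.37 to −0.08), 2.33-fold lower in knockout, with an unadjusted p of 0.0403 and a limma adjusted p of 0.924. Its name ends in x_at, which marks probes that may also bind other transcripts. A probe set without this mark read 6.67, 5.66 and 4.81 in knockout and 6.37, 7.21 and 7.06 in wild type, a difference of −1.17 ± 0.51 (SE). On both probe sets replicate 1 was the highest knockout and the lowest wild-type array. The remaining, dim probe set differed by 0.18 ± 0.18.

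By replicate number the brightest *Tnnt2* probe set differed by 0.28, −1.76 and −2.19. Without replicate 1 of both genotypes it was 3.93-fold lower in knockout (−1.98 ± 0.19, SE; limma adjusted p = 0.0296), while the second probe set, at −1.90 ± 0.32, did not pass (limma adjusted p = 0.0566). *Acta1* and *Tnnt2* thus had different patterns over the arrays: *Acta1* was highest on both replicate 1 arrays, whereas the *Tnnt2* values of replicate 1 (6.54 in knockout, 6.26 in wild type) lay between those of the other arrays of the 2 genotypes. *Tnnt3*, the fast skeletal troponin T, read 4.79, 4.52 and 4.83 in knockout and 5.18, 4.65 and 4.32 in wild type. Its groups overlapped, with a difference of −0.01 ± 0.25 (SE).

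**Figure D2:**
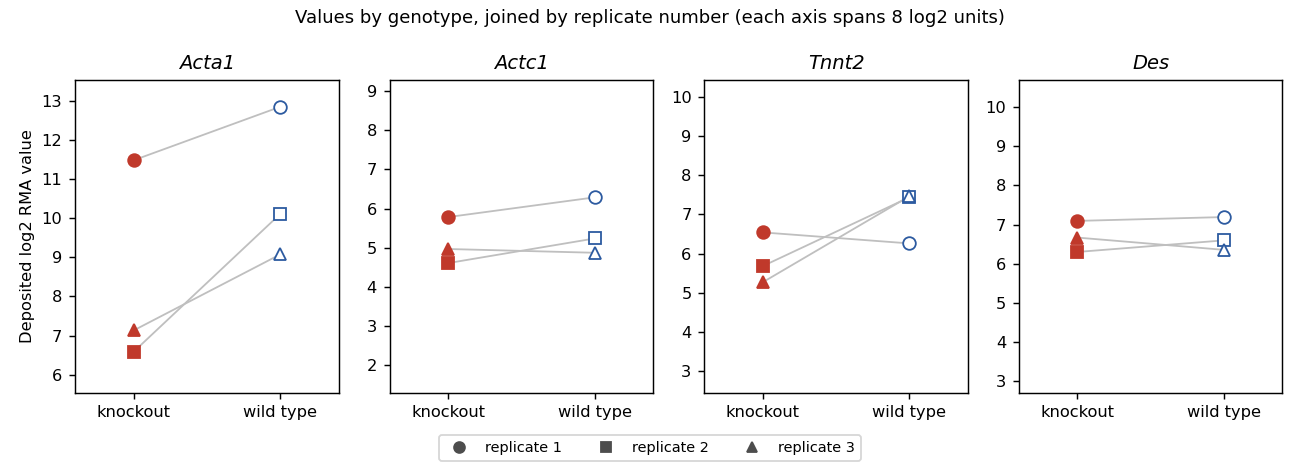
Deposited log2 values of the brightest probe set of *Acta1*, *Actc1*, *Tnnt2* and *Des* in knockout (left, filled) and wild type (right, open), with grey lines joining arrays of the same replicate number. All lines of *Acta1* run lower in knockout, and for *Tnnt2* those of replicates 2 and 3 do.

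*Myl1*, an essential light chain of fast skeletal myosin, was dim, at 4.24, 3.50 and 3.69 in knockout and 3.83, 3.69 and 3.84 in wild type. Knockout replicate 1 was the highest array and the difference was 0.02 ± 0.22 (SE). *Des*, whose filaments tie muscle fibrils together and which smooth muscle cells also make, read 7.09, 6.30 and 6.67 in knockout and 7.19, 6.60 and 6.36 in wild type on its brighter probe set. The groups overlapped almost fully, and the difference was −0.03 ± 0.30 (SE; 95% interval −0.77 to 0.71). Its dim second probe set differed by −0.18 ± 0.23.

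Over all 15 probe sets, 0 passed between genotypes (limma adjusted p of 0.924 or more), as did 0% of all 45037. At an unadjusted p under 0.05 there was 1 of 15, for *Tnnt2* and lower in knockout, against 5.34% of all (2.45% lower). With the replicate block there was also 1, for *Acta1* and again lower, against 8.88% (3.78% lower). The groups did not overlap for 0 of 15, against 8.91% of all probe sets. Without replicate 1 of both genotypes 2 of 15 passed, both lower in knockout, against 4.08% of all (2.06% lower). The median difference was −0.11 over the 15 probe sets and −0.0044 over all, with 12 of 15 and 22921 of 45037 below 0. In RNA from whole cultures, fewer cells that make a transcript and less of it per cell cannot be told apart.

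**Figure D3:**
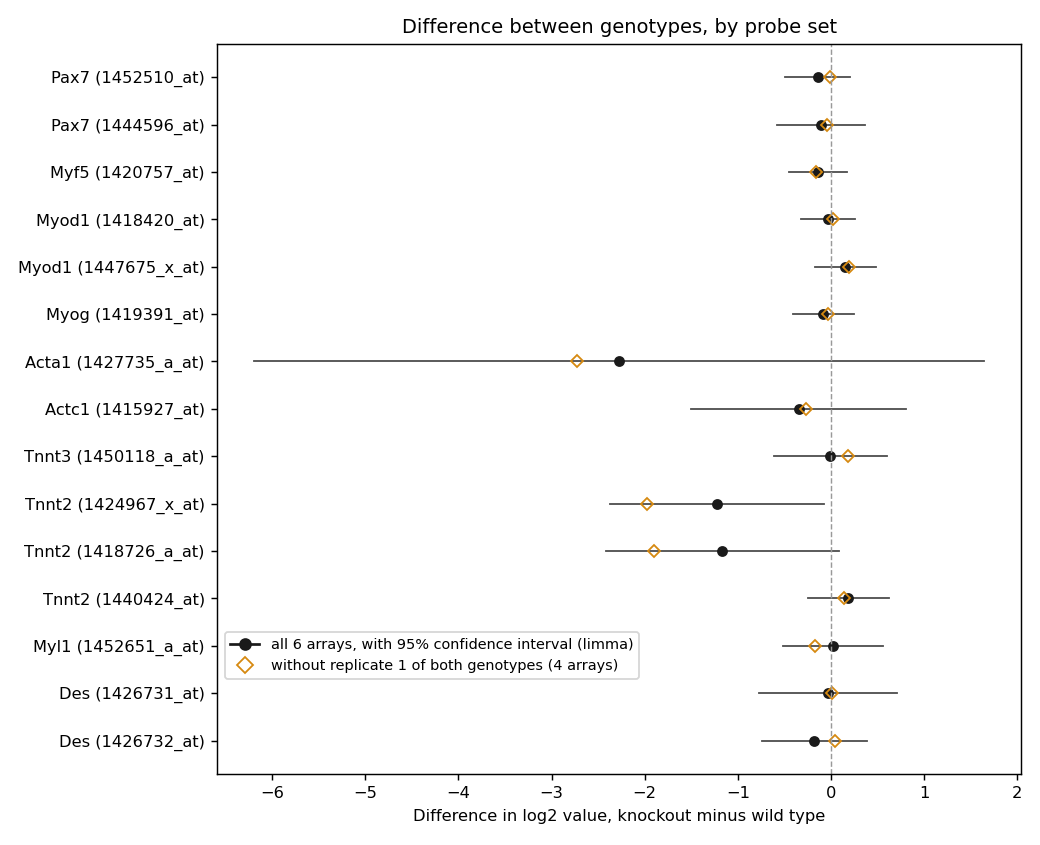
Difference in log2 value, knockout minus wild type, of the 15 probe sets over all 6 arrays (black dots, bars give the 95% limma interval) and without replicate 1 of both genotypes (orange diamonds). The interval of *Acta1* runs from −6.20 to 1.65, and leaving out replicate 1 moves the brighter *Tnnt2* probe sets to −1.98 and −1.90.

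Genes with patterns most like those of *Acta1* and *Tnnt2*, the 2 genes whose brightest probe set spanned at least 2 log2 units, were sought among probe sets that spanned at least 1. For *Acta1* they were *Gss*, encoding glutathione synthetase, *Abhd3*, *Cdk5rap3*, *Ccs*, a copper chaperone, and *Fbxo25*, with Pearson's r of 0.995 to 0.998 over the 6 arrays. For *Tnnt2* they were *Sos2*, a Ras exchange factor, the kinase gene *Dyrk2*, the kinesin gene *Kif1b*, *Ttc39b* and *Zbtb24*, at 0.994 to 0.997. None is a sarcomere gene. With 6 arrays, of which the replicate 1 pair stands apart, and 14071 and 14070 candidate probe sets, such values describe these arrays only.

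Other muscle genes, 101 measured of 104 listed in 7 groups, were mostly dim and none passed the test (limma adjusted p of 0.924 or more, and 0% of 18193 genes passed). Below the median level of all probe sets lay 54.5% of them, against 37.7% of all genes. At an unadjusted p under 0.05 there were 2, both lower in knockout, or 1.98% against 6.98% of all genes (2.77% lower). The medians were −0.02 for 23 fast sarcomere genes, −0.04 for 12 slow and cardiac sarcomere genes and 0.04 for 19 genes of muscle membranes, calcium handling and energy supply, against 0.0067 over all genes. They were −0.07 for 24 myogenic regulators and myoblast genes, −0.06 for 13 genes of serum response factor, its cofactors and the partners and inhibitors of the helix-loop-helix factors, −0.17 for 4 other actins and −0.16 for 6 partners of desmin filaments.

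Of the sarcomere genes, 21 of 23 fast and 9 of 12 slow and cardiac ones lay below that median level. *Myh3*, the embryonic myosin heavy chain, had the smallest p of the fast genes with a difference of 0.23 ± 0.18 (SE), and the brightest was *Ldb3*, a Z-disc protein, at 8.58, 5.03 and 5.03 in knockout and 9.21, 7.67 and 5.67 in wild type (−1.30 ± 1.30). Like *Acta1*, *Ldb3* was highest on the replicate 1 arrays, and its other probe sets differed by −0.39 and −0.43. Without replicate 1 of both genotypes the brightest *Ldb3* probe set differed by −1.64 ± 0.68 (SE) and did not pass (limma adjusted p = 0.293). *Tnnc1*, the slow and cardiac troponin C, read 7.96, 7.06 and 6.99 in knockout and 8.44, 7.63 and 8.22 in wild type, a difference of −0.76 ± 0.35 (SE). Among the membrane and energy genes, the mitochondrial creatine kinase gene *Ckmt2* was dim and differed by −0.36 ± 0.16, and the brightest, the enolase gene *Eno3*, by 0.29 ± 0.53.

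The 2 genes at an unadjusted p under 0.05 were both surface proteins of muscle. *Chrnb1*, a subunit of the muscle acetylcholine receptor, read 6.27, 4.69 and 4.79 in knockout and 6.72, 6.83 and 6.66 in wild type, and *Itga7*, a laminin receptor chain, read 7.35, 5.67 and 5.64 in knockout and 8.23, 7.86 and 7.46 in wild type. Knockout lay below wild type without overlap for both, a pattern that 4.43% of all probe sets share. Their differences were −1.49 ± 0.44 (limma adjusted p = 0.924) and −1.63 ± 0.51 (limma adjusted p = 0.924, both ± SE). The adhesion molecule gene *Ncam1*, the brightest of the myoblast list, differed by −0.25 ± 0.54. Without replicate 1 of both genotypes 8 of the 101 passed, or 7.92% against 5.78% of all genes (2.72% lower and 3.07% higher). Lower in knockout were *Chrnb1* (−2.01), *Itga7* (−2.01), the homeobox gene *Six4* (−1.80), and the desmin partners *Cryab*, a small heat shock protein (−3.27), and *Sync* (−3.47). Higher were *Eya1*, a cofactor of homeobox proteins of the *Six4* family (2.04), *Twist2*, a factor that represses myogenesis (1.15), and the smooth muscle actin gene *Actg2* (1.55). *Twist1*, of the same list as *Twist2*, was lower in that fit (−1.29) and did not pass (limma adjusted p = 0.142). *Chrnb1* and *Sync* were named because they had the smallest p of their lists in these same data. The others were named after their values were seen. Other probe sets of some of these genes differed less in that fit: 0.089 for 1 of *Cryab*, −0.15 for 1 of *Six4*, 0.59 and 0.70 for 2 of *Eya1* and −0.51 for 1 of *Sync*, none of which passed.

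**Figure D4:**
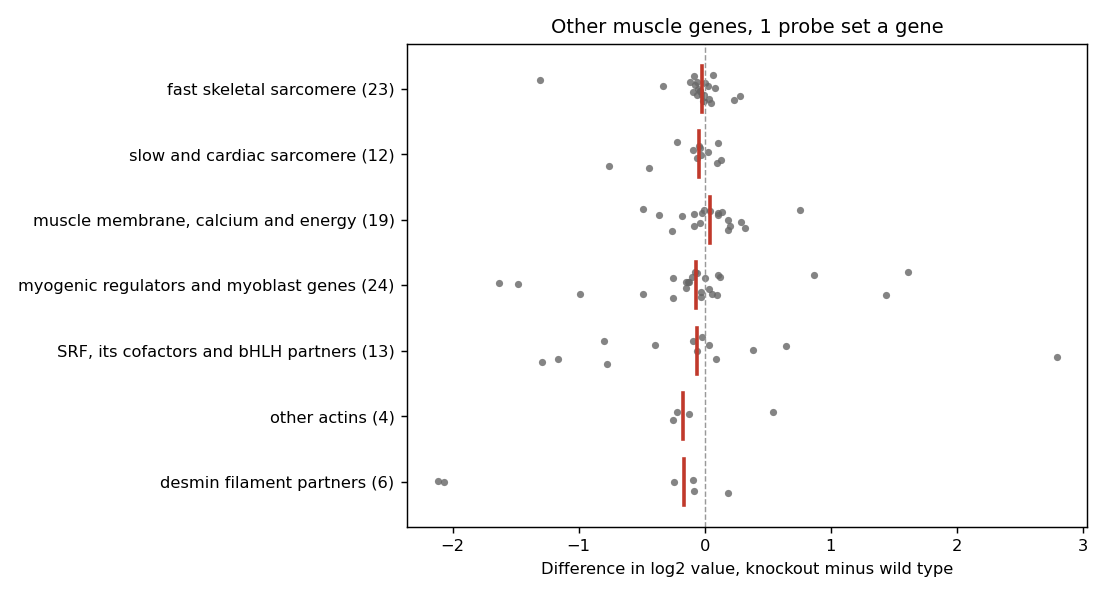
Difference in log2 value, knockout minus wild type, of 101 other muscle genes in 7 groups, 1 probe set a gene (grey dots), with the median of each group as a red bar and the number of genes in brackets. The medians lie between −0.17 and 0.04, and single genes reach −2.12 (*Cryab*) and 2.79 (*Id4*).

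*Id4*, of the family that blocks helix-loop-helix factors, had the smallest p of its list, at 9.06, 11.01 and 10.89 in knockout and 9.83, 4.91 and 7.85 in wild type (2.79 ± 1.30, SE). Wild-type replicates 2 and 3 were low and replicate 1 was not. Without replicate 1 of both genotypes the difference was 4.58 ± 0.995 (SE; limma adjusted p = 0.0884), and the other *Id4* probe sets, at 2.18 and 2.51 over all arrays, differed by 3.36 and 3.99 and passed (limma adjusted p = 0.0244 and 0.0498). The other genes of the *Id* family on that list, named after their values were seen, went the other way. They differed by −1.17 ± 0.84 (*Id1*), −0.80 ± 0.62 (*Id2*) and −1.29 ± 0.87 (*Id3*, all ± SE). Without replicate 1 of both genotypes they differed by −1.75, −1.56 and −1.66, and none passed (limma adjusted p of 0.0891, 0.109 and 0.173). The brightest gene of that list was *Tcf12*, a dimer partner of the myogenic factors, at 0.09 ± 0.20. Among desmin partners *Sync* read 7.32, 4.51 and 4.52 in knockout and 6.58, 8.44 and 7.52 in wild type (−2.07 ± 0.90), and vimentin (*Vim*), the main intermediate filament of fibroblasts, differed by −0.24 ± 0.12.

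The other actins did not follow *Acta1* alike. The brightest probe set of *Acta2*, the actin of smooth muscle and myofibroblasts, read 14.56, 14.38 and 14.35 in knockout and 14.77, 14.74 and 14.55 in wild type (−0.25 ± 0.13, SE), close to the top of the scale. A second *Acta2* probe set read 8.12, 5.90 and 4.87 in knockout and 8.75, 9.19 and 7.60 in wild type (−2.22 ± 0.89, SE), so the probe sets of this gene disagreed in size. *Actg2* read 11.58, 10.93 and 10.79 in knockout and 13.07, 9.38 and 9.23 in wild type, lower in knockout in replicate 1 and higher in replicates 2 and 3. The cytoplasmic actin *Actb* differed by −0.13 ± 0.12 on its brightest probe set. Its other probe set differed by −0.59 ± 0.66 (SE), with knockout replicate 1 the lowest array at 11.37. *Actg1*, also of this list, differed by −0.22 ± 0.14. Of the 10 smooth muscle markers 0 passed and their median difference was −0.11. At an unadjusted limma p under 0.05 there was 1, *Smtn*, lower in knockout (−0.99 ± 0.35, SE), against 6.98% of all genes. In the fit without replicate 1 of both genotypes 3 of 10 passed, all higher in knockout, against 3.07% of all genes: *Cnn1* (3.05), *Mylk*, a myosin kinase gene (2.79), and *Actg2* (1.55), while *Acta1* and *Tnnt2* were lower in that fit. The other markers did not pass there: *Smtn* (−1.25), *Lmod1* (−1.05), *Tagln* (−0.75), *Acta2* (−0.28), *Tpm2* (−0.0049), *Myh11* (0.042) and *Synpo2* (0.36). The median of the 10 in that fit was 0.019. The summed linear value of the 10 markers ran from 44290 to 72870 in knockout and 46590 to 97140 in wild type. *Cnn1*, which like *Mylk* and *Smtn* was named after its values were seen, read 11.74, 11.44 and 11.27 in knockout and 13.19, 8.55 and 8.06 in wild type. Of the 9 heart muscle markers 8 lay below the median level of all probe sets, 0 passed, and their summed value ran from 201 to 648 in knockout and 235 to 1281 in wild type, with the higher end set by *Nppb*, a natriuretic peptide gene also named after its values were seen (8.74, 4.48 and 4.34 in knockout and 10.02, 5.15 and 6.91 in wild type). The part of proliferation state, RNA quality, fibroblast markers or other cell types in the differences of *Acta1* and *Tnnt2* was not tested.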

How the data were processed

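Total RNA of the 6 samples was hybridised to 1 Affymetrix mouse array each. The authors deposited log2 values, summarised per probe set by RMA under R (version 2.11.1), as the submitters' processing notes say. RMA equalises the distributions of the arrays, so a change in total RNA cannot be seen. The annotation package they used is not given in these sources. Of 45101 probe sets, 64 controls were set aside. Of the other 45037, 34945 had 1 gene in the platform annotation, 932 several and 9160 none, and only the first were named. By Entrez identifier 99.42% of them matched the gene table of GRCm38.p6, which changed 0 symbols. Each gene of a list was read from its brightest probe set by mean.

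Knockout and wild type were set against each other by limma (3.58.1, under R 4.3.3; lmFit, then eBayes, with genotype alone) over all 45037 probe sets, with Benjamini-Hochberg adjustment at 0.05. The number of arrays limits the precision. The genes and lists were chosen with earlier results of these data known. All probe sets of the 10 genes are named, and from each list the gene of smallest p and the brightest. Both genotypes are numbered 1 to 3 in the labels. After subtracting genotype means, same-numbered arrays correlated at 0.497 (replicate 1), 0.491 (replicate 2) and 0.247 (replicate 3), all over 0.1. The replicate number was therefore also tried as a block. The labels do not say that the numbers pair the arrays, and knockout replicate 2 also correlated with wild-type replicate 3 (0.326). Because replicate 1 stood apart in both genotypes, it raises several of these correlations by itself, so they cannot show a pairing. Alternatives were the replicate block, a trended robust prior, a filter on dim probe sets, quantile normalization again, median centring, array weights, each array left out, and 1 value per gene; leaving out both replicate 1 arrays, or taking them as a batch, was chosen after seeing the data. On simulated data for 45037 probe sets, limma recovered 4% of 50 changes of 1 log2 unit, 58% at 2, 66% at 3 and 78% at 4, with 6 false calls. The simulated noise was independent between arrays and held no shift shared by the replicate 1 arrays. The changes were put on probe sets drawn at random, so these shares do not apply to a probe set as variable as that of *Acta1*.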

Additional observations from a re-analysis of the deposited data

How the results depend on the processing

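With the replicate block limma called 0 probe sets (smallest adjusted p 0.487), 0 of the 15 muscle probe sets (smallest adjusted p 0.536) and 0 of the 101 other muscle genes, and it changed no call. The count of all probe sets at an unadjusted p under 0.05 was 4001 with the block and 2406 without. The trended prior, the dim filter, the other scalings, array weights, 1 value per gene and a batch term for replicate 1 called 0 too. Leaving out 1 array called 0 to 48 probe sets, 0 of the muscle probe sets and 0 to 1 of the other muscle genes, with 48 and 1 (*Chrnb1*) without knockout replicate 1. Without both replicate 1 arrays there were 1836, 2 and 8.

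*Acta1* ran from −3.81 to −1.19 and *Tnnt2* from −1.98 to −0.73 over all alternatives, with no change of direction. Small differences of dim or steady genes did change sign. Array weights gave 0.037 for *Myod1*, 0.018 for *Myog*, 0.15 for *Tnnt3*, −0.047 for *Myl1* and 0.049 for *Des*. Leaving out 1 array gave −0.079 to 0.00013 for *Myod1*, −0.68 to 0.066 for *Actc1*, −0.20 to 0.23 for *Tnnt3*, −0.19 to 0.18 for *Myl1* and −0.23 to 0.21 for *Des*. Without both replicate 1 arrays *Myod1* was at 0.019, *Tnnt3* at 0.19, *Myl1* at −0.17 and *Des* at 0.0087, and the mean of its probe sets put *Myod1* at 0.062. The cause was not tested. The dim filter removed 11 of the 15 probe sets and left values for *Acta1*, *Tnnt2* and *Des* alone.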
